A study of Mus musculus with 2 samples.

Results

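The Wnt genes of the mouse ventral midbrain were read in 1 library labelled Ctrl and 1 library labelled OE. The set was taken by gene symbol. It holds every numbered Wnt, Fzd, Sfrp, Dkk, Rspo and Dvl gene, Lgr4 to Lgr6, and Axin1, Axin2, Ctnnb1, Apc, Lrp5, Lrp6, Wif1, Frzb, Nkd1, Nkd2, Rnf43, Znrf3, Tcf7 and Tcf7l1. This gave 61 of the 31252 genes in the count table.

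Both mice were 2 months old, and the strain is labelled Incipient congenic C57BL/6. The Ctrl genotype is Slc6a3-Cre, in which Cre recombinase is made from the dopamine transporter gene and so acts in dopaminergic neurons. The OE genotype is Slc6a3-Cre; CAG-S-COUP-TFII, in which Cre also switches on COUP-TFII, an orphan nuclear receptor encoded by Nr2f2. By the cross given in the study's methods, mice of both genotypes would also carry 1 floxed Tfam allele, which Cre deletes, and a ROSA26-tdTomato reporter, although the labels name neither. The labels give the cell type as dopaminergic neurons, but RNA was made from the whole dissected tissue, and the defining genes of glia and vessels were present in both libraries beside those of dopaminergic neurons.

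Nr2f2 went against the labels. This gene was read 637 times in the library labelled Ctrl and 377 times in the other. The log2 fold change, taken as OE over Ctrl by the labels here and throughout, was -1.07, with an exact 95% counting interval, drawn from how a gene's counts divide between the libraries, from -1.26 to -0.88. Whether transcripts of the transgene were counted under Nr2f2 is not given in the sources used here. Whether the labels of the 2 libraries were exchanged was not tested. With Nr2f2 against the labels, the libraries are named below as labelled Ctrl and labelled OE. A direction says only which labelled library was higher. The library totals were 16984336 counts (Ctrl) and 21326632 counts (OE). The Wnt genes held 0.140% and 0.135% of these counts. Among the 49 of them that averaged 10 counts or more over both libraries, the median was 150 and 170 counts a gene. With 1 library per group there is no replicate check and no test between genotypes. The intervals cover counting error only, and each difference compares these 2 libraries, not the conditions. In bulk tissue, fewer cells of a type and less RNA per cell cannot be told apart.

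Wnt proteins are secreted, lipid-modified signals. In the canonical branch, a Wnt binds a Frizzled receptor together with Lrp5 or Lrp6, Dishevelled is recruited, and the complex of Axin and Apc that marks β-catenin for destruction is held back. β-catenin then enters the nucleus and acts with the TCF/LEF transcription factors, while other branches steer cell polarity without β-catenin. During development Wnt signals pattern the midbrain and help to specify its dopaminergic neurons. In the adult brain they also maintain the blood-brain barrier.

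The proximal promoters of 3 Wnt genes are shown because these genes represent a ligand that was lower in labelled OE (Wnt9a), a ligand that was higher (Wnt10b) and the commonly used feedback readout of β-catenin (Axin2). Each is the 250 bases before the RefSeq start, 5′ to 3′ on the gene's own strand, with CpG dinucleotides in capitals. In GRCm38.p6 the windows lie at chr11:59306680-59306929 on the plus strand for Wnt9a, chr15:98778151-98778400 on the minus strand for Wnt10b and chr11:108920099-108920348 on the plus strand for Axin2.
Wnt9a: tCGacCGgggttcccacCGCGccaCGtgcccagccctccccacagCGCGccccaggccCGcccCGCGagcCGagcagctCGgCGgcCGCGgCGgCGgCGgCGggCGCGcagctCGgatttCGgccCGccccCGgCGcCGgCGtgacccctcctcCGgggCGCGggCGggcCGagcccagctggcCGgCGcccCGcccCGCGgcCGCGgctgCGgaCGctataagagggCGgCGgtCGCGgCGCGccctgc
Wnt10b: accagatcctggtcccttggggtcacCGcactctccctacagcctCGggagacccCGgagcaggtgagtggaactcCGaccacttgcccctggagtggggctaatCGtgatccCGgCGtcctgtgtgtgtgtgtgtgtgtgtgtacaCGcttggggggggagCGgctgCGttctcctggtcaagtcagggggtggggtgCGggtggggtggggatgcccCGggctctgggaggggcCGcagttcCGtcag
Axin2: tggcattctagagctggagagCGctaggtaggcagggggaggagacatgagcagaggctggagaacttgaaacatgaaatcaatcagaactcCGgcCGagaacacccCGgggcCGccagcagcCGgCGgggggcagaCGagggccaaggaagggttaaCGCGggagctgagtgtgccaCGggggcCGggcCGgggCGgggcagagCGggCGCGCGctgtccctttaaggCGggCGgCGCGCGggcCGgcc
The Wnt9a window held 48 CpGs and was 84.4% G or C, whereas the Wnt10b window held 14 CpGs and was 66.8% G or C. The Axin2 window lay between them, with 24 CpGs and 69.2% G or C. A RefSeq window was matched for 41 of the 61 Wnt genes. Their median G and C content was 69.2%, beside 52% over all 27025 windows, and their median number of CpGs was 22, beside 6.

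A short TCF/LEF motif (CTTTGAA or CTTTGAT or CTTTGTA or CTTTGTT, on either strand) was found in the windows of Dkk1, Fzd7 and Wnt11, which are 7.32% of the 41, and in 14.9% of all windows. The nuclear receptor half-site AGGTCA, which COUP-TFII can bind, was found on either strand in 1 of the 41 windows, that of Wnt16, or 2.44%, and in 13.8% of all windows. Neither set of letters occurred in the windows of Wnt9a, Wnt10b or Axin2. These are matches of letters and not binding sites. The shares over all windows were not matched for the higher G and C content of the Wnt windows. They therefore do not show whether Wnt promoters hold fewer sites.

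Of the 61 Wnt genes, 49 reached the minimum, a mean over both libraries of 10 counts or more, and were given a fold change. A gene was called higher or lower when its log2 fold change passed 0.2 in size, the fold the study itself used. In labelled OE, 8 of the 49 were higher (16.3%), beside 17.9% of all 15246 genes that passed the same minimum. A further 14 were lower (28.6%), beside 16.6% of all genes. When the counting interval also had to leave out 0, 4 genes were higher (8.16%, beside 9.90% of all genes) and 8 were lower (16.3%, beside 9.16%). The higher side thus lay near the background, and the lower side had the larger share. Of the 14 lower genes, 6 had a mean of at least 100 counts. The shares of all genes given here are also the background for the counts by role and by list below. The median log2 fold change of the 49 was -0.055, beside 0.0046 over all genes, with 23 above 0 and 26 below.

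Larger differences were few. A log2 fold change above 0.5 was found in 4 of the 49 genes (8.16%), beside 5.59% of all genes, and one below -0.5 was found in 5 (10.2%), beside 5.03%. For 34 of the 49 genes the interval held 0. The 20 genes with a mean under 100 counts had intervals reaching a median of 0.62 log2 units to either side, so a difference of log2 0.2 was not detectable at their depth. For the 6 most deeply read genes the same median was 0.10.

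**Figure D1:**
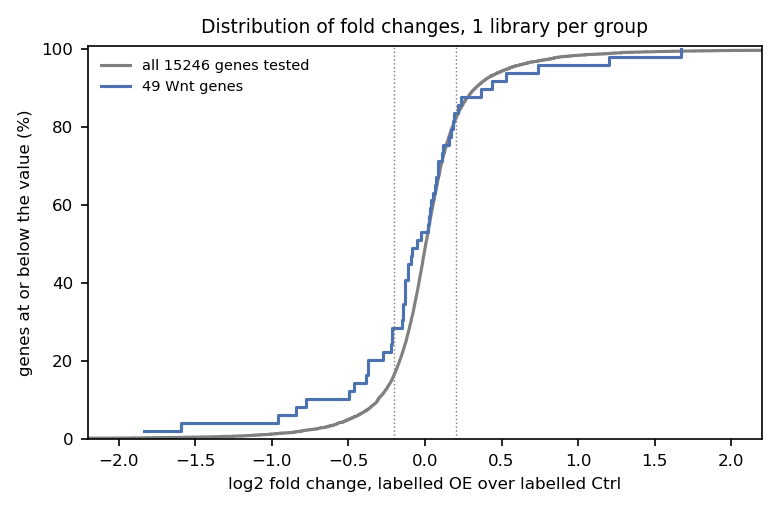
Share of genes (y axis, %) at or below each log2 fold change (x axis, OE over Ctrl by the labels) for the 49 Wnt genes and for all 15246 genes, from 1 library per group, with dotted lines at the fold used for calls. The Wnt curve lies above that of all genes on the lower side, where 28.6% of Wnt genes and 16.6% of all genes pass the fold, and both are close on the higher side, at 16.3% and 17.9%.

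Of the 19 Wnt ligands, 10 passed the minimum, of which 3 were higher and 4 lower past the fold. No transcript of Wnt1, Wnt3a or Wnt8a was counted in either library. A count of 0 allows up to 3 counts, or 0.177 CPM (counts scaled to the library's depth) for labelled Ctrl and 0.141 for labelled OE. Wnt1 is the ligand that shapes the midbrain in the embryo, and it lies on chromosome 15 next to Wnt10b, with 11.7 kb between the genes. Wnt6 stood at 2 and 3 counts. Of the ligands under the minimum, Wnt10a (10 and 3 counts) had a log2 ratio whose interval ran from -4.55 to -0.09, while Wnt11, Wnt16, Wnt8b and Wnt9b had 12 counts or fewer in each library and intervals that held 0.

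Wnt7b was the most abundant ligand per transcript length in both libraries. Levels of different genes are compared in TPM, which divides counts by transcript length and scales each library to the same total. Wnt7b, which with Wnt7a signals to brain endothelium, had 299 and 414 counts in labelled Ctrl and labelled OE. Its level was 14.2 and 15.4 TPM, or 29.8% and 34.6% of the summed ligand level. The log2 fold change was 0.16, with an interval from -0.06 to 0.38, so the libraries did not differ in Wnt7b beyond counting error.

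Wnt7a and Wnt5a differed in opposite directions. Wnt7a had 177 counts in labelled Ctrl and 170 in labelled OE (197 and 153 as normalized counts, which are scaled to a common depth), a log2 fold change of -0.37 with an interval from -0.68 to -0.06. Wnt5a had 240 and 385 counts (normalized counts of 268 and 345), a log2 fold change of 0.37 with an interval from 0.13 to 0.61. Wnt5a, the main ligand of the β-catenin-independent branch, acts in the morphogenesis of midbrain dopaminergic neurons. In labelled Ctrl, the levels per length were 8.30 for Wnt7a and 6.70 for Wnt5a, and their counting intervals overlapped. In labelled OE the order was the other way, with 6.26 for Wnt7a and 8.44 for Wnt5a and intervals that did not overlap. The order also reversed with the longest transcript of each gene, but the size of the gaps depended on the length used. The levels were then 10.1 and 6.21 TPM in labelled Ctrl and 7.61 and 7.79 TPM in labelled OE for Wnt7a and Wnt5a. Wnt3 followed at 5.85 and 5.16 TPM, with 121 and 136 counts and an interval of the fold change that held 0.

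Of the genes above the minimum, the most strongly lower were Wnt2b and Wnt9a, both of which can signal through β-catenin. Wnt2b (chromosome 3, 104945272 to 104961921, GRCm38) had 50 counts in labelled Ctrl and 17 in labelled OE, or 55.7 and 15.3 normalized counts. The log2 fold change was -1.84, with an interval from -2.76 to -1.05. Wnt9a (chromosome 11, 59306928 to 59333552), whose CpG-dense promoter is printed above, had 69 and 28 counts, or 76.9 and 25.1 normalized counts, and a log2 fold change of -1.60 with an interval from -2.30 to -0.96. In TPM, Wnt9a stood at 3.09 and 0.986 and Wnt2b at 2.24 and 0.599, and for each gene the intervals of the 2 libraries did not overlap. Wnt3a, the neighbour of Wnt9a at a distance of 16.2 kb, was at 0 in both libraries.

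Wnt10b was the ligand with the largest positive fold change, from very few counts. It had 6 counts in labelled Ctrl and 25 in labelled OE (6.69 and 22.4 normalized counts), a log2 fold change of 1.67 with an interval from 0.43 to 3.32. Wnt2 had 5 and 15 counts and a log2 fold change of 1.20, but its interval, from -0.26 to 3.09, held 0. Wnt10b held 0.546% of the ligand counts in labelled Ctrl and 1.89% in labelled OE, so it weighed little in the ligand total. All Wnt ligands together had 1099 and 1321 counts, and the log2 fold change of the sum was -0.05, with an interval from -0.16 to 0.07. The libraries thus differed in which ligand transcripts they held more than in the ligand total.

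**Figure D2:**
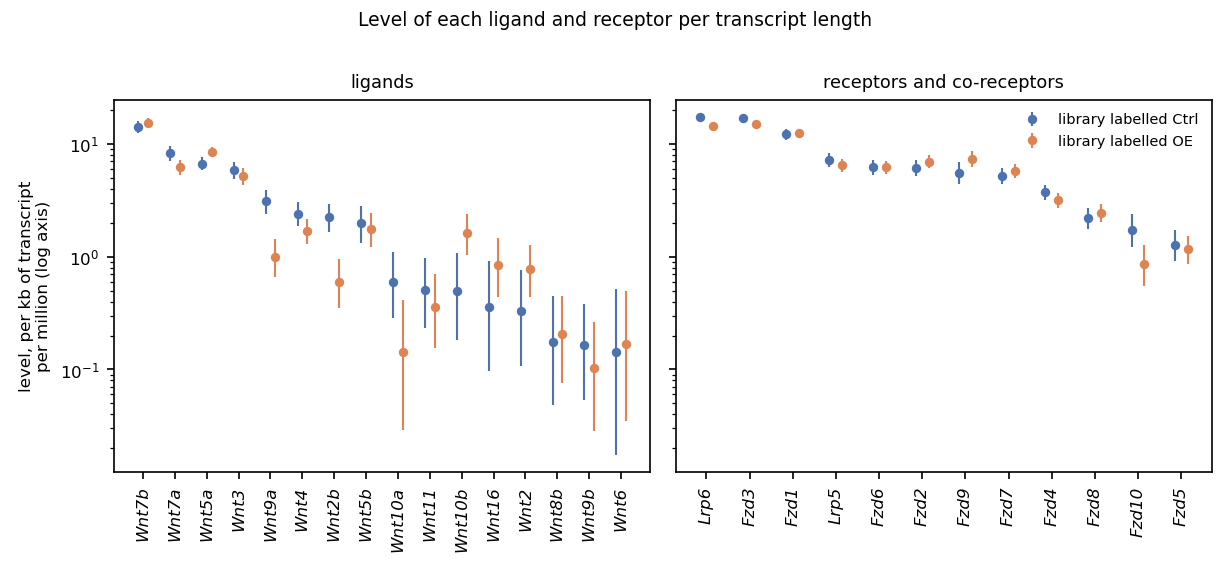
Level of each Wnt ligand with a count (left) and each Frizzled or Lrp receptor (right), in TPM on a log axis, in labelled Ctrl (blue) and labelled OE (orange), with exact 95% Poisson intervals. Wnt7b leads the ligands in both libraries at 14.2 and 15.4, Wnt9a and Wnt2b are lower in labelled OE, and the 3 leading receptors are Lrp6, Fzd3 and Fzd1.

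All 10 Frizzled receptors and both Lrp co-receptors were read above the minimum. Of these 12 genes, 2 were higher and 3 lower past the fold, and their median log2 fold change was -0.03. Lrp6, the co-receptor that is phosphorylated when Wnt binds, and Fzd3 had the highest levels per length, and their intervals overlapped in both libraries. Lrp6 stood at 17.4 TPM in labelled Ctrl and 14.5 TPM in labelled OE. From 1094 and 1164 counts, its log2 fold change was -0.22, with an interval from -0.34 to -0.10. Its relative Lrp5 had 193 and 219 counts and a log2 fold change of -0.13, with an interval from -0.42 to 0.16.

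Fzd3, a receptor that guides axons through the planar polarity branch, had levels of 16.9 and 15.0 TPM. With 1449 and 1632 counts its log2 fold change was -0.14 (-0.24 to -0.04), within the fold. Besides Lrp6, 2 receptors passed the fold with an interval that left out 0. Fzd9 had 86 and 145 counts (95.9 and 130 normalized counts), a log2 fold change of 0.44 with an interval from 0.05 to 0.84. Fzd10 was the receptor that differed most, with 38 and 24 counts (42.4 and 21.5 normalized counts) and a log2 fold change of -0.96 (-1.78 to -0.20). Fzd2 and Fzd4 passed the fold at 0.23 and -0.21 with intervals that held 0. The other 6 Frizzled genes, Fzd1, Fzd3, Fzd5, Fzd6, Fzd7 and Fzd8, lay between -0.14 and 0.19.

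Among the genes grouped as secreted inhibitors, most of which bind Wnt proteins or their co-receptors outside the cell, Dkk3 stood apart. Dkk3 (chromosome 7, 112116017 to 112159057) is a divergent Dickkopf whose effect on Wnt signalling varies between settings. It had 934 counts in labelled Ctrl and 1675 in labelled OE, or 1041 and 1503 normalized counts. The log2 fold change was 0.53, with an interval from 0.41 to 0.65, the tightest of the Wnt genes past 0.5. Dkk3 was also the most abundant gene of this group, at 41.3 and 58.3 TPM. It held 60.4% of the inhibitor counts in labelled Ctrl and 68.2% in labelled OE. Per transcript length, its shares of the summed inhibitor level were 51.8% and 60.5%.

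The other inhibitors differed little. Sfrp5, a soluble Wnt-binding protein with a Frizzled-like domain, came next in level at 19.0 and 18.8 TPM. Its counts were 243 and 306, and its log2 fold change was 0.02. The 4 Sfrp genes had log2 fold changes between 0.02 and 0.11, and the interval of each held 0. Frzb, a related soluble receptor, stood at 0.03. Wif1 was the one inhibitor below 0, at -0.37 from 47 and 45 counts, with an interval that held 0. Dkk2 had 9 and 19 counts and a log2 fold change of 0.74, again with an interval that held 0, and Dkk1 and Dkk4, the classical blockers of Lrp5 and Lrp6, were at 0 in both libraries. In all, 7 of the 8 inhibitors above the minimum had a positive fold change, but only the interval of Dkk3 left out 0. Their sum, from 1547 to 2455 counts, had a log2 fold change of 0.35 (0.26 to 0.45), which rests mainly on Dkk3.

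R-spondins bind Lgr4, Lgr5 and Lgr6 and keep the ligases Rnf43 and Znrf3 from removing Frizzled receptors. Of the 8 genes of this module above the minimum, 1 was higher and 3 lower past the fold. Rnf43 (chromosome 11, 87662722 to 87735539) was the one whose interval left out 0. It had 100 counts in labelled Ctrl and 69 in labelled OE (111 and 61.9 normalized counts), and a log2 fold change of -0.84 with an interval from -1.31 to -0.39. Znrf3, the paired ligase, had 227 and 288 counts and a log2 fold change of 0.03. Rnf43 and Znrf3 therefore differed from each other in how they compared between the libraries, as their intervals did not overlap.

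Lgr4 had 510 and 610 counts and a log2 fold change of -0.05. Its level, 15.1 and 14.2 TPM, was the highest of this module, although its interval overlapped that of Lgr5 in both libraries. That closeness depends on the length used. With the longest transcript of each gene, Lgr4 stood at 18.3 and 17.1 TPM and Lgr5 at 10.2 and 8.58 TPM. Lgr5 (266 and 285 counts) and Lgr6 (32 and 23 counts) had log2 fold changes of -0.21 and -0.78, and both intervals held 0. Rspo1, Rspo2 and Rspo3 had between 45 and 81 counts in each library and log2 fold changes of 0.12, 0.22 and -0.11, with intervals that held 0. Rspo4 stood at 4 and 6 counts.

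**Figure D3:**
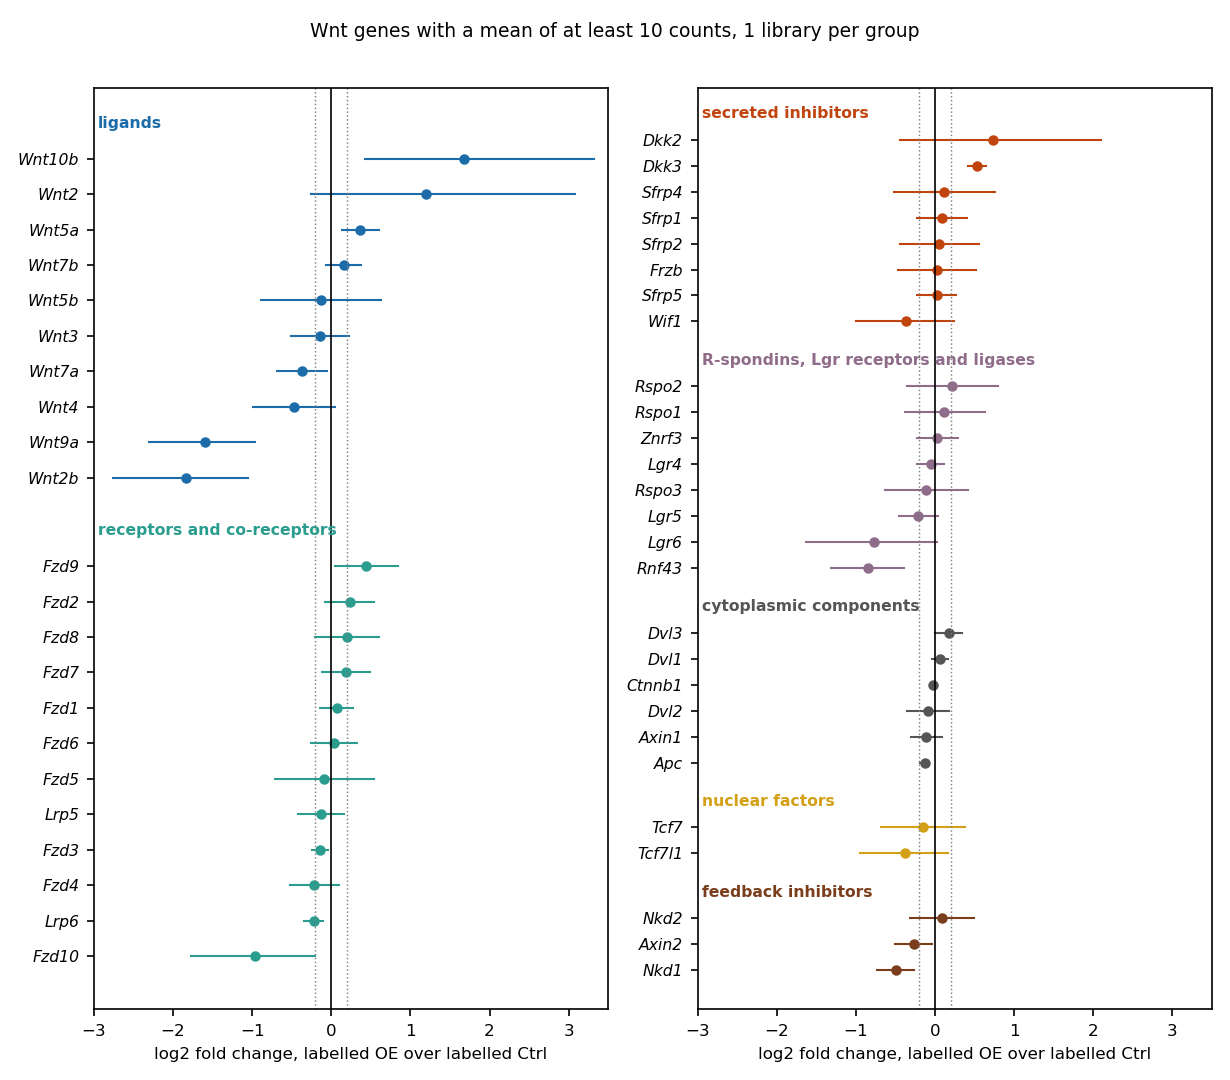
Log2 fold change (x axis, OE over Ctrl by the labels) of each of the 49 Wnt genes that reached the minimum of 10 counts on average, grouped by role, with 1 library per group. Bars are exact 95% counting intervals and dotted lines mark the fold of 0.2. Wnt2b and Wnt9a lie furthest to the left, Wnt10b furthest to the right, Dkk3 has a short bar above 0.2, and the 6 cytoplasmic components lie between the dotted lines.

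The cytoplasmic core of the pathway held Ctnnb1 and Dvl1, the Wnt genes with the highest levels in both libraries, and its differences were small. None of its 6 genes passed the fold. Ctnnb1, which encodes β-catenin, had 7598 counts in labelled Ctrl and 9280 in labelled OE. At 357 and 343 TPM it was the most abundant Wnt gene, and its log2 fold change was -0.02 (-0.07 to 0.02). Apc, a scaffold of the destruction complex, had 4885 and 5551 counts and a log2 fold change of -0.13 (-0.18 to -0.07), an interval below 0 but within the fold. Axin1, the constitutive Axin, stood at -0.11.

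The Dishevelled genes, whose products relay the signal from Frizzled, were also close between libraries. Dvl1 had 1358 and 1767 counts and a log2 fold change of 0.07 (-0.04 to 0.17). Dvl2 had 224 and 262 counts and a log2 fold change of -0.09 (-0.35 to 0.18). Dvl3 had 494 and 691 counts and a log2 fold change of 0.17, with an interval whose lower end was 0.0023. These values concern mRNA and say nothing of the amount or place of β-catenin protein.

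The nuclear factors showed a contrast between the 2 TCF genes in the set and their relatives outside it. Tcf7 had 59 and 66 counts and Tcf7l1 had 59 and 56. Their log2 fold changes were -0.15 and -0.39, and both intervals held 0. Tcf7l2 and Lef1 were not in the set and were added because all 4 TCF/LEF factors share the partner β-catenin. Tcf7l2 (chromosome 19, 55741820 to 55933654) had 2204 counts in labelled Ctrl and 398 in labelled OE, and was 6.88-fold lower in labelled OE. Its log2 fold change was -2.78, with an interval from -2.94 to -2.63. Lef1 (chromosome 3, 131110471 to 131224356) had 233 and 95 counts and a log2 fold change of -1.60 (-1.97 to -1.26).

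Summed over the 4 factors, the counts were 2555 in labelled Ctrl and 615 in labelled OE, a log2 fold change of -2.37 (-2.50 to -2.24). Tcf7l2 held 86.3% of the 4 factors' counts in labelled Ctrl (exact binomial interval 84.9% to 87.6%) and 64.7% in labelled OE (60.8% to 68.5%). Per transcript length, its shares were 85.5% and 61.0%. Tcf7l2 is also a marker of thalamic neurons. It is 1 of the 15 thalamus markers above the minimum, and all 15 were lower in labelled OE, by a median of -2.09 on the log2 scale. The summed normalized count of these markers was 21415 in labelled Ctrl and 11041 in labelled OE, and Gbx2 was at 0 in the latter. The part of thalamic tissue in the Tcf7l2 and Lef1 values was not tested.

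**Figure D4:**
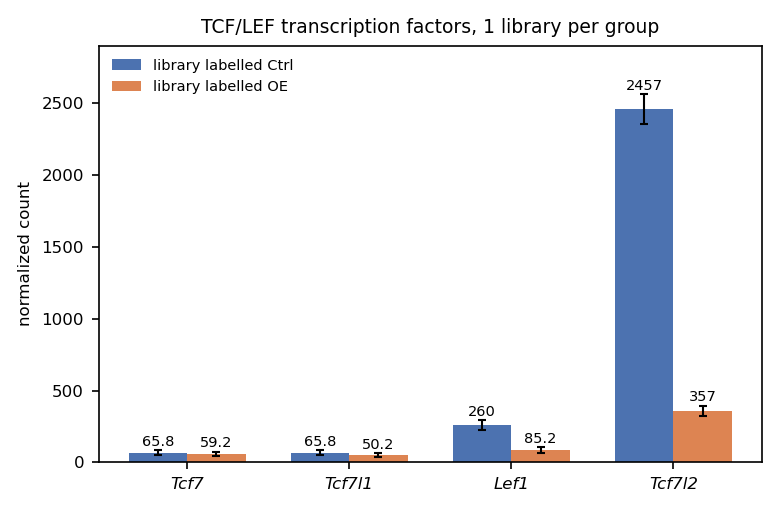
Normalized count (y axis, linear from 0) of the 4 TCF/LEF transcription factors in labelled Ctrl (blue) and labelled OE (orange), with exact 95% Poisson counting intervals and 1 library per group. Tcf7l2 stands at 2457 and 357 and Lef1 at 260 and 85.2, whereas Tcf7 and Tcf7l1 have overlapping intervals.

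The feedback inhibitors are induced by β-catenin and then limit it. Axin2 (chromosome 11, 108920349 to 108950783), whose promoter is printed above, had 312 counts in labelled Ctrl and 321 in labelled OE. After scaling these were 348 and 288 normalized counts, a log2 fold change of -0.27 with an interval from -0.50 to -0.04. Nkd1, which binds Dishevelled, had 333 and 293 counts (371 and 263 normalized counts) and a log2 fold change of -0.50 (-0.73 to -0.27). Its level was 16.3 and 11.3 TPM, and in each library its interval overlapped that of Axin2. Nkd2, its paralogue, had 91 and 120 counts and a log2 fold change of 0.09, with an interval that held 0. Together the 3 genes had 736 and 734 counts, and the log2 fold change of the sum was -0.32 (-0.47 to -0.17).

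A further 69 genes of the pathway were read beside the set. Of the 65 above the minimum, 9 were higher (13.8%) and 18 lower (27.7%) past the fold, beside 17.9% and 16.6% of all genes. With an interval that left out 0, 7 were higher (10.8%) and 12 lower (18.5%), beside 9.90% and 9.16%. The median log2 fold change of the 65 was -0.03. Of the 17 genes for secretion and extracellular modulation, 3 were higher (17.6%) and 7 lower (41.2%). Wls, the carrier that brings Wnt proteins to the cell surface, had 924 and 800 counts and a log2 fold change of -0.52 (-0.66 to -0.38). Gpc3, a glypican that can hold Wnt proteins at the membrane, had 178 and 115 counts and a log2 fold change of -0.94 (-1.29 to -0.60). Notum, an enzyme that removes the lipid from Wnt proteins, had 43 and 33 counts and stood at -0.69 (-1.40 to -0.01). Draxin, an axon guidance protein that can bind Lrp6, had 9 and 25 counts and stood at 1.12 (0.01 to 2.44).

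The receptor partners for Wnt7a and Wnt7b on endothelium differed in direction. Gpr124, an adhesion receptor, had 201 and 327 counts and a log2 fold change of 0.39 (0.13 to 0.65). Reck, which binds Wnt7 proteins directly, had 227 and 212 counts and stood at -0.41 (-0.69 to -0.14). Both were named after their values were seen.

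Of the 13 alternative receptors and planar polarity genes, 1 was higher (7.69%) and 7 lower (53.8%) past the fold, with a median of -0.23. With an interval that left out 0, none was higher and 3 were lower (23.1%). The 18 further cytoplasmic genes, among them the kinases Gsk3a and Gsk3b, had a median of 0.02, with 2 higher and 2 lower. In the 13 further nuclear genes, the median was 0.01 with 1 higher and 2 lower, and the lower pair was Tcf7l2 and Lef1. Of 7 frequently used β-catenin targets above the minimum, 2 were higher and 3 lower past the fold, with a median of -0.19. With an interval that left out 0, 1 was higher, Cd44, and 3 were lower, Lef1, Notum and Apcdd1. These 3 lower genes were also counted in the lists above, so the target list is not a separate set. Cd44, an adhesion receptor, had 65 and 150 counts and a log2 fold change of 0.89 (0.46 to 1.34). Apcdd1, a membrane inhibitor of Wnt signalling, had 441 and 424 counts and stood at -0.37 (-0.57 to -0.17).

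The libraries also differed in the markers of several cell types and neighbouring regions, and the part of these differences in the Wnt results was not tested. All 16 markers of dopaminergic neurons were higher in labelled OE (median 1.26 on the log2 scale), and their summed normalized count went from 29700 to 70448. Th, the rate-limiting enzyme of dopamine synthesis, had 2499 and 9354 counts, and Slc6a3 had 4955 and 15033. Markers of meningeal fibroblasts were lower past the fold in 11 of 12 cases, with a median of -0.64 and a sum of 2670 and 1851. For endothelium, 7 of 11 markers were lower (median -0.28, sum 6904 and 6078), and for pericytes and smooth muscle, 7 of 9 (median -0.31, sum 5028 and 3818).

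Of the lists for the ventricle wall, 4 of 6 ependymal markers were lower (median -0.84), with Ccdc153 at 0 in labelled OE, and the normalized counts of all 10 listed summed to 531 and 423. Of 8 choroid plexus markers, 2 were higher and 2 lower (median 0.0041), the normalized counts of all 12 listed summed to 1158 and 677, and Ttr, the leading choroid plexus transcript, had 426 and 67 counts. In habenula markers, 6 of 8 were higher and 2 lower (median 0.53), and in hypothalamus markers, 4 of 9 were higher and 4 lower (median 0.12). For glia, 8 of 12 oligodendrocyte markers were lower (median -0.32), as were 5 of 11 microglial markers (median -0.14) and 1 of 10 astrocyte markers (median -0.07), while in oligodendrocyte precursors 1 of 8 was higher and 1 lower (median -0.01). Of 4 blood genes, 1 was higher (median 0.09), and S100a8 was at 0 in both libraries.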

How the data were processed

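Ventral midbrain was dissected and flash frozen, and stranded mRNA libraries were sequenced as paired reads of 50 bp. A company pipeline then made the gene table. The authors deposited it as RSEM expected counts per gene, with no scaling, for 1 library per group. RSEM divides reads among the transcripts they match, so a count need not be whole, but every value of the Wnt genes was. The labels list mm10. The aligner, the annotation and whether strand was used in counting are not given in the sources used here. Exons of a gene on the opposite strand cover 18.3% of the exon bases of Dvl2, 17.8% of Fzd5, 16.1% of Sfrp2, 14.6% of Ctnnb1, 13.7% of Lef1, 13.1% of Rspo3 and 7.46% of Nr2f2. If strand was not used, reads of these pairs cannot be told apart.

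Samples were grouped by their titles, which read Control and OE, and the former is written Ctrl. Counts were scaled with TMM in edgeR 4.0.16 (R 4.3.3), and a normalized count is a count at the mean library size. A pseudocount of 0.5 normalized counts was added before each log2 fold change, and 15246 genes whose counts averaged 10 or more were kept. Counting intervals come from exact 95% Clopper-Pearson limits (scipy 1.17.1) on how the counts of a gene divide between the libraries, and levels carry exact Poisson intervals. Levels per length used the median length of each gene's protein-coding transcripts in the basic set of GENCODE M21 (GRCm38). Promoters came from a RefSeq table of GRCm38.p6.

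No p-value was computed, since 1 library per group allows none. The calculation was tested on simulated counts with Poisson error only. These hold no variation between mice, so they check the calculation and not the calls. Values in both libraries are given for each Wnt gene past log2 0.2 with an interval that leaves out 0, for the most abundant gene of each role, and for Ctnnb1, Axin2, Lrp5, Lrp6 and the Dvl genes. Of the further pathway genes, those past log2 0.5 with such an interval are named, with Lef1 and Tcf7l2. Other genes are named to account for every member. The Wnt genes and the lists were chosen with earlier results of these data known. Alternatives were other scalings, pseudocounts, count minimums, folds and transcript lengths.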

Additional observations from a re-analysis of the deposited data

How the results depend on the processing

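No paired analysis was possible because neither label has a second library. The largest moves came from the count minimum and the fold. With a mean of at least 100 counts, 29 Wnt genes remained, of which 4 were higher and 6 lower past the fold. With an interval that left out 0, 3 were higher and 4 lower. Whether the lower share at this minimum still exceeded that of all genes is not known. With a fold of log2 0.5, 4 were higher and 5 lower, which follows from the stricter fold. Under total-count, upper-quartile and DESeq2 scaling and a pseudocount of 5, the counts of genes higher and lower stayed within 7 to 9 and 13 to 14. With all 56 Wnt genes that had a count, they were 12 and 17. No share of all genes was computed at either of these other count minimums. Over all alternatives, the median of the Wnt genes ran from -0.070 to 0.019, with the value above 0 at a mean of at least 100 counts, and Nr2f2 ran from -1.08 to -1.06. Scaling put the median of all genes between -0.011 and 0.018. For the 24 genes followed singly under 4 settings, all 96 values kept their direction and their side of the fold. Wnt2b ran from -1.85 to -1.58, Wnt9a from -1.61 to -1.44 and Wnt10b from 1.23 to 1.69. With the longest transcript as length, Wnt7b held 29.5% and 35.4% of the ligand level, and in labelled OE Axin2 (10.7 TPM) stood above Nkd1 (10.2 TPM). Depth limits the ligands most, as 9 of 19 were under the minimum.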
